A study of Homo sapiens with 6 samples.

Results

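The SRC-family kinases LYN, FYN, LCK, BLK, YES1, SRC and FGR were examined together with the regulators CSK and PAG1 in human leukaemia cells with reduced STAT3. The 9 genes were found by symbol among the 26364 genes of the authors' deposited table, and 8 of them had an adjusted p and are called tested here. RNA came from REH, an established human line of acute lymphoblastic leukaemia of the B-precursor type. For 3 libraries the cells had been transduced with lentiviral particles carrying a short hairpin RNA against STAT3 (shSTAT3), and in the other 3 with a scramble control. Both groups spent 3 days in puromycin and were freed of dead cells before extraction, and the replicates were independent experiments in the same line. The labels name the hairpin by its target only.

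SRC-family kinases are membrane-anchored tyrosine kinases that pass signals from receptors without a kinase of their own. In B cells they phosphorylate the CD79A and CD79B chains of the B-cell receptor or its precursor, which then recruit SYK, and LYN also phosphorylates inhibitory receptors such as CD22. CSK holds the kinases inactive by phosphorylating a tyrosine near their C-terminal end, phosphatases such as CD45 (PTPRC) remove that phosphate, and PAG1 is a membrane adaptor that recruits CSK.

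That tyrosine ties all the kinases to CSK, so the end of the coding sequence is shown for the members whose sequence was used here, without the stop codon. Sequences come from GENCODE release 29 transcripts, run 5′ to 3′ and start 6 codons before the last tyrosine codon of the reading frame, which is in capitals.
FYN: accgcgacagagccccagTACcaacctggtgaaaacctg
YES1: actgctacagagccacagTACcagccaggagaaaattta
SRC: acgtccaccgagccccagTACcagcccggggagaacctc
FGR: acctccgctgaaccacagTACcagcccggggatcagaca
LCK: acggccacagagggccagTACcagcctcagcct
The capitalised codon is residue 531 of 537 in FYN, 537 of 543 in YES1, 530 of 536 in SRC, 523 of 529 in FGR and 505 of 509 in LCK. In these 5 transcripts it is written TAC, and 6 residues follow it in all but LCK, where 4 follow.

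Per gene, the deposited table gives the mean of the normalized counts, the log2 fold change and the p-value with its adjusted form. As it gives no value per library, members are described by these values and by an interval worked out from fold change and p. It names no numerator. A negative fold change is read as lower in shSTAT3 because STAT3 itself stands at −1.75, so STAT3 is no independent check of the labels. The mean total over all genes was 11485068 normalized counts per library, and size factors lay between 0.935 and 1.13. Reads recovered for 3974 of the 3979 genes with a mean between 0 and 2 put 27.5% of them in 1 library, which carries no label, and between 12.7% and 16.2% in each of the others. All 4 reads of the kinase gene MATK and the 1 read of CD3E lay in that library. Their log2 fold changes were −0.13 and −0.06 per the authors' deposited table. With the sign read as above, that places the library in scramble. No result could be computed without that library. As markers of the labelled cell type, 8 of 9 B-cell precursor genes had means above 1000 normalized counts, while VPREB1 was listed at 0. The 4 T-cell markers had means of at most 0.516, and the 5 myeloid markers had means between 6.66 and 2330, the highest that of MPO.

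LYN fell strongly, PAG1 and FYN fell slightly, and no member was called higher. LYN stood at 28.1% of its scramble level (95% interval 22.8% to 34.8%), PAG1 at 76.0% (67.9% to 85.1%) and FYN at 85.3% (75.7% to 96.2%). The remaining 5 tested members, SRC, BLK, LCK, YES1 and CSK, did not pass an adjusted p of 0.05. Thus 3 of 8 tested members were called per the authors' deposited table, or 37.5%, against 44.5% of all 12061 tested genes. In the downward direction the background was 23.2% and in the upward direction 21.3%. The share of members called was therefore near that of the whole table. At an unadjusted p under 0.05, SRC would count as lower and CSK, 1 of 8, as higher. For scale, 5960 of the 12061 tested genes had a p at or below that of SRC, in either direction. LYN differed from the other members in size, since its interval overlaps none of theirs. The median log2 fold change was −0.17 over the 8 tested members and 0.0027 over all tested genes. In bulk RNA, fewer cells of a kind and less RNA per cell cannot be told apart.

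**Figure D1:**
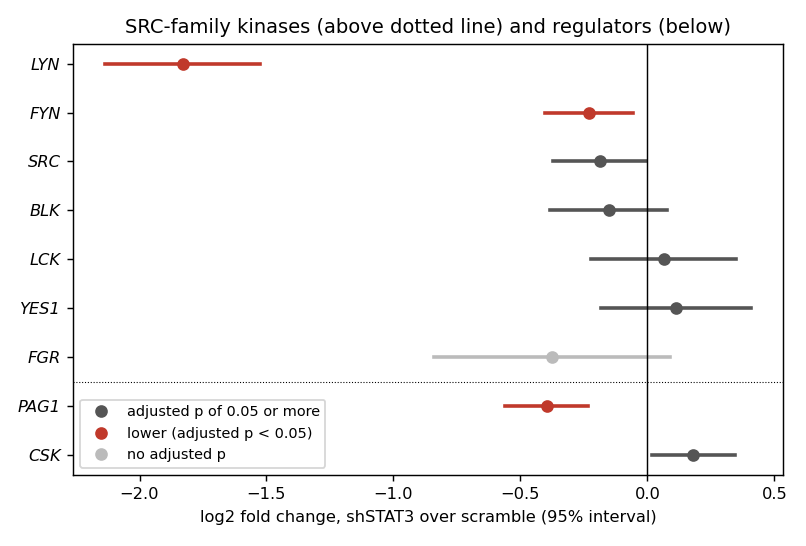
Log2 fold change (shSTAT3 over scramble) of the 9 members per the authors' deposited table. Points are fold changes, bars are 95% intervals worked out from fold change and p, and colour marks the call at an adjusted p of 0.05. LYN at −1.83 lies apart from all others, whose values range from −0.40 to 0.18.

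LYN, the SRC-family kinase best known in B cells for both activating and inhibitory signalling, lies on chromosome 8 from 55879813 to 56014168 on the plus strand (GRCh38, GENCODE release 29). Its mean was 226 normalized counts and its log2 fold change −1.83 per the authors' deposited table (adjusted p = 6.89e-30). The standard error implied by these values was 0.16, against a median of 0.14 for tested genes with a mean within 2-fold of that of LYN. Together with the mean of 226, the fold change corresponds to about 353 normalized counts in scramble and 99.4 in shSTAT3. Only 15 of the 12061 tested genes, LYN included, had a fold change as low per the authors' deposited table, and by p-value LYN ranked 117. Among the 3695 tested genes with a mean within 2-fold of its own, 5 including LYN were as low. For scale, STAT3, the target of the hairpin, had a log2 fold change of −1.75 per the authors' deposited table, with a 95% interval of −1.93 to −1.56 that overlaps that of LYN (−2.13 to −1.52).

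The tested genes on either side of LYN had fold changes above 0. TGS1, which ends 54365 bases before LYN, rose by 0.24 on the log2 scale per the authors' deposited table (adjusted p = 0.00961). RPS20, which begins 53127 bases after it, was at 0.14 per the authors' deposited table and did not pass (adjusted p = 0.0673).

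**Figure D2:**
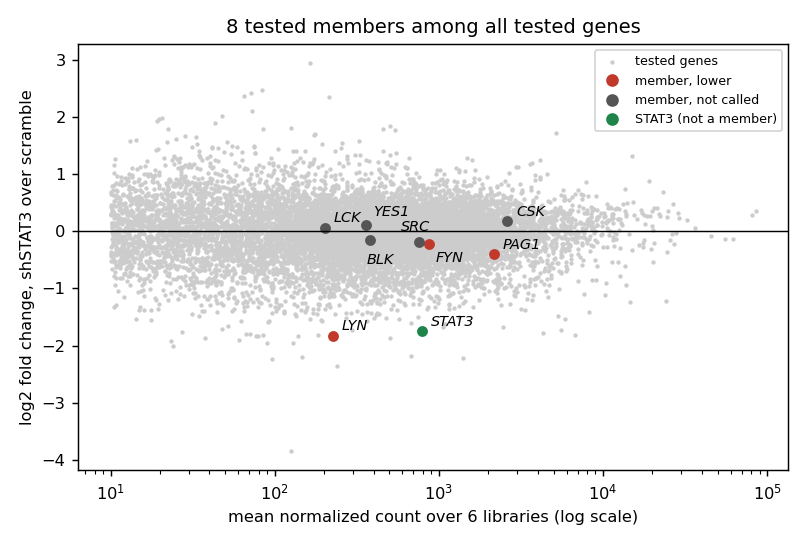
Log2 fold change (shSTAT3 over scramble) against the mean normalized count (log axis) for all 12061 tested genes in grey, with the 8 tested members and STAT3 marked. LYN lies beside STAT3 at the lower edge of the cloud, while the other members lie within it.

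FYN, a broadly expressed kinase that also serves T-cell receptors, is a minus-strand gene on chromosome 6 from 111660332 to 111873452. It had a mean of 870 normalized counts and fell by 0.23 on the log2 scale per the authors' deposited table (adjusted p = 0.0243). Worked out from these, its level was about 938 normalized counts in scramble and 801 in shSTAT3. Of all tested genes, 29.2% had a fold change as low or lower, so the size of this fall was not unusual in the table. The call was lost with a Bonferroni adjustment (adjusted p = 1.0). Its neighbours TRAF3IP2 and TUBE1 were at 0.15 and 0.14 per the authors' deposited table and did not pass.

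SRC, the founding member of the family, lies on chromosome 20 from 37344685 to 37406050. Its log2 fold change was −0.19 with a mean of 760 per the authors' deposited table. The unadjusted p was 0.0447 and the adjusted p 0.0905, so it was not called, and its interval reached from −0.37 to just below 0. BLK, a kinase largely restricted to B-lineage cells, had a mean of 379, with a log2 fold change of −0.15 per the authors' deposited table (adjusted p = 0.297). It lies on chromosome 8 from 11486894 to 11564604, far from LYN, and its interval of −0.38 to 0.08 leaves out a fall as large as that of LYN. FAM167A, the tested gene 10986 bases before BLK, fell by 0.91 on the log2 scale per the authors' deposited table. The mean of FAM167A over all 6 libraries was only 16.1 normalized counts. NEIL2, on the other side of BLK, was at 0.19 and did not pass, per the authors' deposited table. Both tested neighbours of SRC, MANBAL and BLCAP, rose, with log2 fold changes of 0.58 and 0.41 per the authors' deposited table.

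LCK, the kinase that starts T-cell receptor signalling, had a mean of 202 normalized counts per the authors' deposited table, although the T-cell markers were near 0. Its log2 fold change of 0.06 per the authors' deposited table did not pass (adjusted p = 0.75), with an interval of −0.22 to 0.35. It lies on chromosome 1 from 32251239 to 32286165. YES1, another widely expressed kinase, lies on chromosome 18 from 721588 to 812546. Its mean was 359 and its log2 fold change 0.11 per the authors' deposited table (adjusted p = 0.572), with an interval of −0.18 to 0.41. For both kinases the intervals allow a moderate difference in either direction, so these values do not show equal levels. The tested neighbours of LCK, EIF3I and HDAC1, did not pass either, with log2 fold changes of 0.17 and 0.02 per the authors' deposited table. For YES1 they were ENOSF1 at −0.08 and METTL4, 1724979 bases away, at −0.25 per the authors' deposited table, and neither passed.

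FGR, a kinase of myeloid cells, was hardly detected and is the member without an adjusted p. It lies on chromosome 1 from 27612064 to 27635277. Its mean was 1.99 normalized counts per the authors' deposited table, under the lowest mean among tested genes, 10.0. The mean could be resolved into whole reads: 13 in all, of which 10 lay in 1 unlabelled library, 1 in each of 3 others and 0 in the remaining 2. The library with 10 reads is the same one that held 27.5% of low-count reads, and it lies in scramble by the sign reading above. The log2 fold change of FGR, −0.38 per the authors' deposited table (unadjusted p = 0.114), therefore rests on few reads from mostly 1 library. The part of that library in the other members' values was not tested. Of its tested neighbours, AHDC1 rose by 0.31 on the log2 scale and IFI6, at −0.06, did not pass, per the authors' deposited table.

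Of the regulators, CSK and PAG1 had opposite signs. CSK lies on chromosome 15 from 74782057 to 74803198, and with a mean of 2616 it had the most normalized counts of all members. Its log2 fold change was 0.18 per the authors' deposited table, with an unadjusted p of 0.0311 and an adjusted p of 0.0665, so it was not called. CSK lies 56447 bases from CYP1A1, which had a log2 fold change of 2.94, the highest of all tested genes, per the authors' deposited table. ULK3, the tested gene on the other side of CSK, rose by 0.39 on the log2 scale per the authors' deposited table. PAG1, on chromosome 8 from 80967810 to 81112068, had a mean of 2170 and fell by 0.40 on the log2 scale per the authors' deposited table (adjusted p = 1.27e-05). That corresponds to about 2466 normalized counts in scramble and 1874 in shSTAT3. The nearest tested genes on both sides of PAG1 also fell per the authors' deposited table. ZNF704, 93029 bases away, had a log2 fold change of −1.02 and FABP5, 168295 bases away, −0.40.

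Levels were compared between members per kilobase of exon (union of all exons in GENCODE release 29). CSK was highest with a mean of 572 normalized counts per kilobase, followed by PAG1 with 197. SRC and FYN were level at 117 each, and BLK, YES1 and LCK followed with 74.7, 70.5 and 60.4. LYN had 36.6 and FGR 0.572. There is no spread over libraries with which to compare neighbours in this order, and it depends on the gene model. With the longest protein-coding transcript as length, a choice made after seeing the data, FYN had 240 per kilobase against 202 for PAG1 and 164 for SRC, and LCK (93.2) stood above YES1 (77.5). LYN and FGR remained the lowest of the 9, with 39.0 and 0.729.

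Within the family, LYN was above only FGR in both groups, and its distance from the next kinase was wider in shSTAT3. By union exon length LYN was at about 57.1 normalized counts per kilobase in scramble and LCK at 59.1, and in shSTAT3 they were at 16.1 and 61.8. By the longest protein-coding transcript, LYN was at 60.8 and YES1, the next kinase, at 74.5 in scramble, and at 17.1 and 80.5 in shSTAT3. Of the summed level of the 7 kinases, LYN made up 11.1% in scramble and 3.65% in shSTAT3 by union exon length, or 7.47% and 2.43% by the longest transcript. The sum itself stood at 85.5% of scramble by the first length and 86.7% by the second. FYN made up 24.6% in scramble and 24.5% in shSTAT3 by union exon length, and SRC 24.3% and 25.0%. These group levels are worked out from shrunken fold changes and carry no error of their own.

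**Figure D3:**
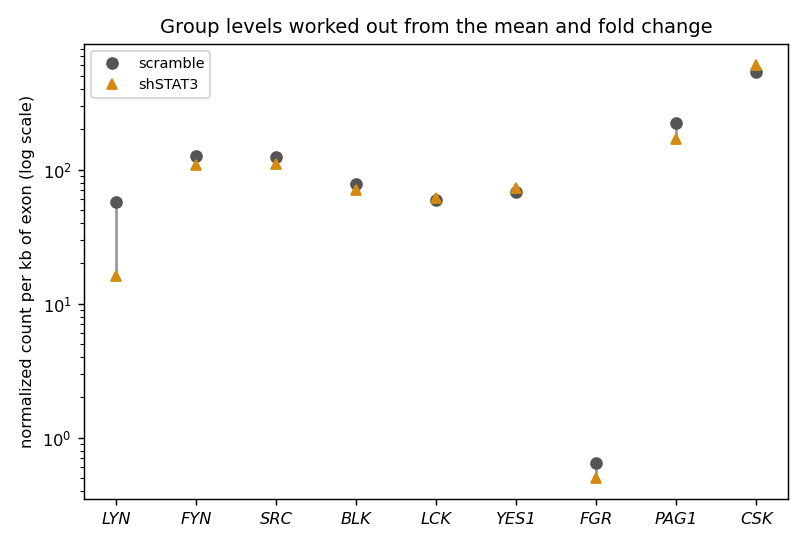
Normalized counts per kilobase of exon (log axis) in scramble (circles) and shSTAT3 (triangles) for the 9 members, worked out from the mean and fold change of the authors' deposited table, with no error bars because no value per library was used. The pair for LYN is the only one widely apart, at 57.1 and 16.1.

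Related kinases outside the family gave no tested gene. FRK, PTK6 and MATK, the CSK-homologous kinase, had means of 2.89, 0.675 and 0.59 per the authors' deposited table and no adjusted p, and SRMS was listed at 0.

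Counts in the lists of related genes stand beside shares of 21.3% higher and 23.2% lower, and a median of 0.0027, over all tested genes. The lists were not tested as sets, so no direction is drawn for a list. Of 14 tested enzymes that set the phosphorylation or turnover of the kinases (phosphatases and ubiquitin ligases or their adaptors), 7 fell, 1 rose and 6 did not pass, with a median log2 fold change of −0.25. The gene that rose was PTPN22, a phosphatase that works with CSK and dephosphorylates the activating tyrosine. PTPN22 rose 2.57-fold per the authors' deposited table (adjusted p = 8.39e-09), with a low mean of 75.6 over all 6 libraries. PTPRJ, the receptor phosphatase CD148, fell to 51.9% of scramble (adjusted p = 3.21e-07 per the authors' deposited table). PTPN11 (SHP2) and UBASH3B, a phosphatase that acts on SYK and related kinases, fell, with log2 fold changes of −0.27 and −0.25 per the authors' deposited table. PTPRC, which encodes CD45, was chosen after its value was seen. It was at 0.16 with an adjusted p of 0.0589 per the authors' deposited table.

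Among adaptors and scaffolds 4 of 13 tested genes rose, 4 fell and 5 did not pass (median −0.16). SKAP2, an adaptor substrate of the family in haematopoietic cells, fell to 55.3% of scramble (adjusted p = 4.78e-16 per the authors' deposited table), and LAT2, the linker also called NTAL, fell by 0.27 on the log2 scale per the authors' deposited table. LIME1, a membrane adaptor that binds LCK and CSK much as PAG1 does, rose 1.67-fold per the authors' deposited table (adjusted p = 5.22e-06), opposite to PAG1. The docking protein gene GAB2 rose 1.54-fold per the authors' deposited table.

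Substrates and partners at adhesion sites and the cell cortex included 6 of 17 tested genes that rose, 2 that fell and 9 that did not pass (median log2 fold change 0.04). CTTN, which encodes the SRC substrate cortactin, rose 3.74-fold per the authors' deposited table (adjusted p = 8.09e-11). Its mean over all 6 libraries was low, at 43.6. LPXN, a leukocyte relative of paxillin that binds LYN, rose 2.27-fold per the authors' deposited table (adjusted p = 1.48e-20). The tyrosine kinase gene ABL2 rose by 0.49 on the log2 scale per the authors' deposited table. KHDRBS1, which encodes the RNA-binding SRC substrate SAM68, fell by 0.42 per the authors' deposited table.

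Listed genes of pre-B-cell receptor signalling, which include the chains CD79A and CD79B and the inhibitory receptor CD22, moved both ways. Of 19 tested, 5 were higher, 5 lower and 9 did not pass (median −0.05). PIK3AP1, the adaptor BCAP that links the receptor to PI3 kinase, fell to 30.3% of scramble, nearly as far as LYN. Its log2 fold change was −1.72 per the authors' deposited table (adjusted p = 1.03e-125), with a mean of 5551 over all 6 libraries. CD79A rose by 0.63 on the log2 scale per the authors' deposited table, and VAV1, a guanine nucleotide exchange factor, by 0.36. PLCG2, the phospholipase activated by SYK and BTK, fell by 0.29 per the authors' deposited table.

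For lipid modification and chaperones, 5 of 10 tested genes fell, 2 rose and 3 did not pass (median −0.28). HSP90AA1 and HSP90AB1, genes of the chaperone on which several of these kinases depend for folding, fell to 42.5% and 69.1% of scramble (adjusted p = 6.99e-34 and 1.53e-11 per the authors' deposited table). The palmitoyltransferase gene ZDHHC20 and the co-chaperone gene FKBP5 fell, with log2 fold changes of −0.75 and −0.50 per the authors' deposited table. Over these 5 lists together 41 of 73 tested genes (56.2%) were called, against 44.5% of all tested genes. This difference was not tested, and no share among genes of similar mean was worked out. Of the 41, 18 were higher and 23 lower, and the median log2 fold change of the 73 was −0.07.

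**Figure D4:**
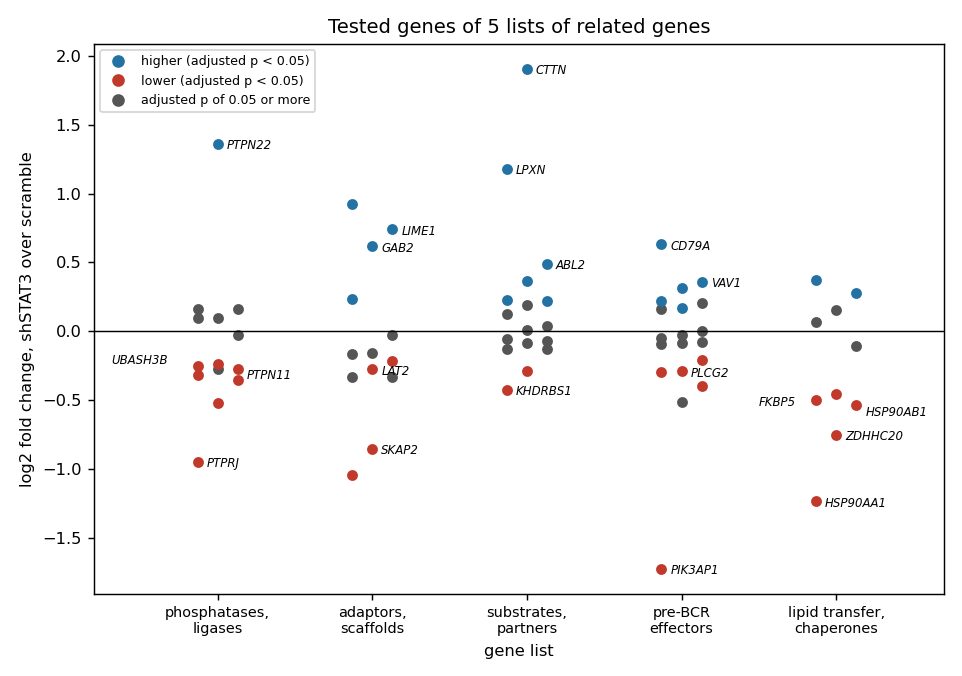
Log2 fold change (shSTAT3 over scramble) of each tested gene in 5 lists of related genes, with colour for the call at an adjusted p of 0.05 and names for the genes given in the text. The widest values are CTTN at 1.90 and PIK3AP1 at −1.72, and each list has calls in both directions.

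Promoters were searched for the letters TTCNNNGAA, the core that STAT proteins bind and which reads the same on both strands. RefSeq promoter windows (250 bases before to 50 after a start, GRCh38.p14) were matched for 5 members, FYN, LCK, YES1, FGR and CSK, with 10 windows in all. The letters occurred in 0 of these 10 windows and in 7.66% of all 35116 windows. That says only that these letters are not in these windows.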

How the data were processed

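TruSeq RNA v2 libraries were made from 6 REH cultures, 3 per group, per the labels' protocols. DESeq2, featureCounts, Bowtie2, Trimmomatic, Picard and bcl2fastq 2.19 are named with build hg38, per the submitters' processing notes. Their settings, the annotation, any use of strand and the model are not given in the sources used. The deposited mean is a normalized signal, read counts divided by size factors and averaged by the authors. The deposited log2 fold change was computed by the authors and is shrunken, since genes with 1 read lie within 0.0593 of 0. The authors' p-value and adjusted p stand beside it, per the file headers, and a Benjamini-Hochberg adjustment over the 12061 tested genes gave the deposited values within 2.87e-07.

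A gene was called at the authors' adjusted p under 0.05. This replaced a count model, which needs values per library. Standard errors are the fold change over the normal score that its p implies, with 95% intervals from them, so they belong to values pulled toward 0. Group levels assume that the mean is the average of 2 equal groups whose ratio is the fold change. Reads behind low means were recovered from the 6 step sizes within a tolerance of 4e-09. Functions were tested on simulated data. p-values come from the authors' fit, whose model is not given, and rest on independent experiments in 1 cell line. Exon lengths, positions and transcripts are from GENCODE 29 (GRCh38), which may not be the authors' annotation. Named genes are the 9 members, STAT3, their nearest tested neighbours, 4 other SRC-related kinases and up to 4 called genes with the smallest adjusted p per list. Members and lists were chosen with earlier results of these data known. Sequences of some members, and some genes of the lists, are not reported here. Computations used scipy 1.17.1, pandas 2.3.3, numpy 2.4.6 and matplotlib 3.10.9 under Python 3.11.15.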

Additional observations from a re-analysis of the deposited data

How the results depend on the processing

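The number of members called lower was 3 and ranged from 1 to 4 over the alternatives. It was 1, LYN, when a fold change of at least 1.5 was also required, and 2, LYN and PAG1, at an adjusted p under 0.01 or with a Bonferroni adjustment, where FYN had an adjusted p of 1.0. The number called higher was 0, and 1, CSK, at an adjusted p under 0.1. No share of all tested genes is given here for these alternatives, so their counts are not set against a background. Adjusting over every gene with a p, or over genes with a mean of at least 50, left the side of the threshold as it was for all 8 tested members. Subtracting the median of all tested genes changed no sign. Of 30 alternative counts for the lists of related genes, 28 lay within 1.5 times the reported count. The others were the 2 adhesion and cortex genes called lower, of which 1 was left at an adjusted p under 0.01 and 1 when adjusting over every gene with a p. No paired analysis was possible because the table analysed here holds no value per library, although the labels number the replicates alike in both groups. For the same reason no replicate could be left out, and no other normalization or count filter was run. Few reads limit what can be said of FGR, which has 13 in all.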
